A study of Mus musculus with 9 samples.

Results

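Intercalated cells of the kidney carry a set of genes for moving acid and base, and 10 of them were followed here in kidneys of young and old wild-type mice. They are the genes of 5 kidney-enriched subunits of the proton pump (Atp6v1b1, Atp6v1g3, Atp6v1c2, Atp6v0d2 and Atp6v0a4), 3 anion exchangers (Slc4a1, Slc26a4 and Slc4a9), the ammonia transporter Rhcg and the transcription factor Foxi1. The members were chosen by symbol from this list, and all 10 were among the 13081 genes of the table. RNA of the kidney was sequenced from wild-type mice of 3 months (young, 4 libraries) and 16 months (old, 5 libraries), and the labels name no treatment other than age. Strain and sex are not given in the labels. The values are normalised counts, that is, reads of transcript ends per gene divided by a single size factor per library. They were not divided by transcript length, so levels are compared here between libraries and not between genes.

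Intercalated cells lie among the principal cells of the connecting tubule and the collecting duct. Type A cells secrete protons into the urine through a vacuolar proton pump (V-ATPase) in the apical membrane and return bicarbonate to the blood through AE1, the product of Slc4a1. Type B cells secrete bicarbonate in exchange for chloride through apical pendrin (Slc26a4) and have AE4 (Slc4a9) in the basolateral membrane. The V-ATPase is built from a V1 sector that hydrolyses ATP and a V0 sector that carries protons across the membrane, and for several subunits the kidney has a form of its own beside a form found in most cells. Foxi1 is a forkhead transcription factor that is required for intercalated cells to form and that acts on pump and exchanger genes.

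Because Foxi1 is a forkhead factor, the promoters of the members were searched for the forkhead motif TGTTTAC and for its core TGTTT, on both strands. Each occurrence of the first also holds the second. RefSeq start sites on GRCm38.p6 gave a window of 250 bases upstream for 7 of the 10 members. The full motif was found in 1 of the 7, Atp6v1b1, with its first base at -98 from the start, against 3.17% of 32851 promoter windows of the same length. The core was found in 4 of the 7 (Atp6v1b1, Atp6v1g3, Slc26a4 and Foxi1), against 46.4% of all windows. A match describes letters in the window and is not evidence of binding. The windows printed below were picked by direction of change and match together, so they show no link between these. Foxi1 was also lower and holds the core, and Atp6v1c2 and Rhcg, which were not called, hold none. The sequences printed here are those of 3 members that were lower in old kidneys and hold a match (Atp6v1b1 on chr6:83742767-83743016, plus strand, Atp6v1g3 on chr1:138273488-138273737, plus strand, and Slc26a4 on chr12:31559985-31560234, minus strand) and 1 that was higher and holds none (Atp6v0a4 on chr6:38124587-38124836, minus strand). All run 5′ to 3′ on the strand given for the gene, and capitals mark the motif or its core, read as AAACA where the match is on the other strand. Bases just after the start were found in a transcript of the gene for the other printed members but not for Slc26a4.
Atp6v1b1: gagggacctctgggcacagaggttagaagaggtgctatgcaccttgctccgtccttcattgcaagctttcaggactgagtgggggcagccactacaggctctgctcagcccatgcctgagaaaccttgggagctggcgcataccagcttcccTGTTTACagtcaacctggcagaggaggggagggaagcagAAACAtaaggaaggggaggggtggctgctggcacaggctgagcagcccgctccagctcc
Atp6v1g3: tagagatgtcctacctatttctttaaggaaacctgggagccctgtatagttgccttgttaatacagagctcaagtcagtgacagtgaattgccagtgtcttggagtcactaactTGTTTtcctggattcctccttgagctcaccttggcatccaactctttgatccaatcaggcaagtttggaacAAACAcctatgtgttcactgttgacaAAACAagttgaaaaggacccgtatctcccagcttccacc
Slc26a4: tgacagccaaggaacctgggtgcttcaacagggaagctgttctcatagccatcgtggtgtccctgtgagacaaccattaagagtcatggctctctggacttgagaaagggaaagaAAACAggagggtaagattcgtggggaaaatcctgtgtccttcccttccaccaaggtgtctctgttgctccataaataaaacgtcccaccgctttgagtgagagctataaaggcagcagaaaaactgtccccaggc
Atp6v0a4: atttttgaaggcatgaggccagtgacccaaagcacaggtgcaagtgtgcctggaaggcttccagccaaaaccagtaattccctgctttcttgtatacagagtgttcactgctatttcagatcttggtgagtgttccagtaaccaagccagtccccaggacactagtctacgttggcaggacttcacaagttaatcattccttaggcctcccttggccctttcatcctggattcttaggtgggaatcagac

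Reads per library over the listed genes ranged from 4486406 to 6355095. The share of reads from mitochondrial genes was 27.0 to 29.8% in young and 35.8 to 38.1% in old libraries. The kidney marker Umod was high in all 9 libraries (5121 to 7367). Young and old libraries have titles with different prefixes (2 in all), so age and whatever else the prefixes stand for cannot be told apart. In the limma fit 12667 genes were tested and 7568 had an adjusted p under 0.05, which is referred to as called. Changes were common, with 59.7% of the tested genes called, 29.2% higher and 30.5% lower in old kidneys. When mitochondrial genes were dropped and the remaining genes rescaled to equal totals, the median log2 fold change of all genes moved from -0.00 to 0.13, and 4472 genes were called higher and 3173 lower, against 3704 and 3864 before.

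Of the 10 members, 8 were called, 2 higher and 6 lower in old kidneys, and the groups did not overlap for 7. Of all tested genes, 59.7% were called, 29.2% higher and 30.5% lower, and 49.0% were without overlap. The median log2 fold change of the members was -0.58, with a range from -1.45 (Slc4a9) to 0.63 (Slc4a1), beside a median of -0.00 over all genes. The 8 calls were kept in each of the 20 alternatives in which the gene was tested. In whole-kidney RNA, fewer cells of a type and less RNA per cell cannot be told apart.

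**Figure D1:**
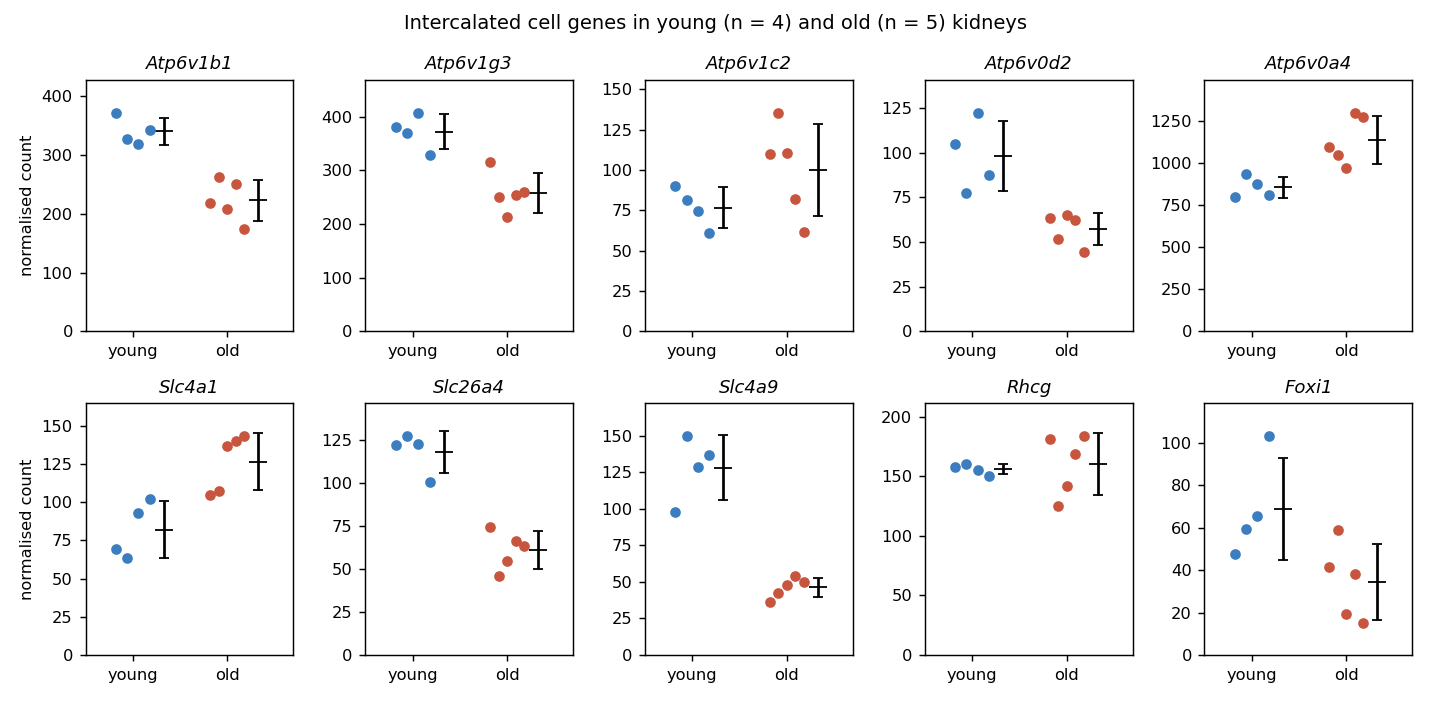
Normalised count of each of the 10 members in every library, with 1 panel per gene, the y axes starting at 0 and young (n = 4) to the left of old (n = 5). Points are libraries and bars are mean ± SD. For Slc4a9 every old library lies below every young one (46.2 against 128 on average), for Slc4a1 every old library lies above, and for Rhcg the old libraries spread to both sides of the young ones.

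The V1 sector members were lower in old kidneys for 2 of 3 genes. Atp6v1b1 encodes the B1 subunit, part of the ring that binds ATP, and mutations in its human form cause distal renal tubular acidosis with deafness. On GRCm38 the gene has 14 exons on chromosome 6 (83742990 to 83758855, plus strand). Its normalised counts were 373, 327, 319.6 and 342 in the young libraries and 218, 263, 209, 251 and 174 in the old libraries. All 5 old values lay below the 4 young values. The mean fell from 340.5 ± 23.4 (SD, n = 4) to 223 ± 35.2 (SD, n = 5), a log2 fold change of -0.62 (SE 0.12, 95% interval -0.88 to -0.36, limma adjusted p = 2.55e-04). Atp6v1g3 encodes the G3 form of a stalk subunit that joins the V1 and V0 sectors (chromosome 1, 138273738 to 138289462, plus strand, 3 exons). It had 382, 370.2, 408 and 329.5 in young and 315, 249, 213, 254 and 259 in old libraries. The groups did not overlap, although the highest old value lay close to the lowest young one. The log2 fold change was -0.53 (SE 0.12, 95% interval -0.78 to -0.29, limma adjusted p = 6.70e-04). With a transcript length trend removed, both values were nearer 0, at -0.37 for Atp6v1b1 (adjusted p = 0.0105) and -0.28 for Atp6v1g3 (adjusted p = 0.0464).

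Atp6v1c2, which encodes the C2 form of a subunit that links the stalks and takes part in the assembly of the pump, did not pass the test. The gene lies on the minus strand of chromosome 12 (17284721 to 17329359), where Pdia6 overlaps its end on the other strand, and reads were counted by strand. It had 90.1, 81.6, 74.5 and 60.7 in young and 109.6, 136, 111, 82.1 and 61.5 in old libraries. The groups overlapped, with 3 old libraries above the young range and 2 within it. Its log2 fold change was 0.34 (SE 0.20, 95% interval -0.08 to 0.76, limma adjusted p = 0.150). Without old replicate 5, the lowest of its group, the value was 0.50 with an adjusted p of 0.0206, and with a transcript length trend removed it was 0.64 with an adjusted p of 0.00878, an alternative chosen after the data were seen. It was lower without old replicate 2 (0.22, adjusted p = 0.344) and without young replicate 4 (0.23, adjusted p = 0.370).

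The V0 sector members moved in opposite directions. Atp6v0d2 encodes the d2 subunit at the junction with the rotor, which is also abundant in osteoclasts and in some macrophages (chromosome 4, 19876841 to 19922605, minus strand, 8 exons). It had 105, 77.7, 123 and 87.8 in young and 63.6, 51.4, 64.9, 62.5 and 44.6 in old libraries, with no overlap. The mean fell from 98.2 ± 19.7 (SD, n = 4) to 57.4 ± 8.98 (SD, n = 5), a log2 fold change of -0.76 (SE 0.18, 95% interval -1.13 to -0.39, limma adjusted p = 0.00108). The summed level of 6 macrophage markers was 469 to 548 in young and 556 to 748 in old libraries, and 3 of the 6 were called, all higher. The part of macrophage RNA in the level of Atp6v0d2 was not tested.

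Atp6v0a4 encodes the a4 form of the subunit that carries the proton path through the membrane, and it is made by intercalated cells and by the proximal tubule. It had 800.1, 939, 876 and 812 in young and 1096, 1047, 971, 1302 and 1278 in old libraries. Each old library was above each young one. The log2 fold change was 0.40 (SE 0.10, 95% interval 0.19 to 0.62, limma adjusted p = 0.00235). The summed level of 5 proximal tubule markers overlapped between the ages, at 28183 to 29084 in young and 25136 to 32690 in old libraries, with 1 marker called higher (Lrp2, log2 fold change 0.95) and 3 called lower. The part of proximal tubule RNA in the rise of Atp6v0a4 was not tested. On GRCm38 the gene lies on the minus strand (chromosome 6, 38048483 to 38124586) and shares exon sequence with D630045J12Rik on the same strand, and 2.37% of the 50-base words in its transcript ends were shared with another gene.

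Each kidney-enriched subunit was set beside the widespread form of the same subunit within a library, where the size factor cancels apart from the pseudocount of 1. Across the 5 pairs and 2 pairs of exchangers, 7 ratios were tested by a two-sided exact permutation test over the libraries, for which the smallest possible p is 0.00794, and p-values were adjusted over the 7. Of the 5 subunit pairs, the B subunits differed most. Atp6v1b2, the B form of most cells, had 1823, 1957, 2085 and 1787 in young and 281, 499.9, 360.0, 333 and 350.1 in old libraries, a log2 fold change of -2.41 (SE 0.13, limma adjusted p = 2.25e-11). Both B genes fell, and Atp6v1b2 fell further. The ratio of Atp6v1b1 to Atp6v1b2 was 0.153 to 0.204 in young and 0.497 to 0.777 in old libraries, a 3.46-fold difference on the log scale (difference of log2 ratios 1.79, exact permutation p = 0.00794, adjusted p = 0.0185). Without any 1 old library the adjusted permutation p was 0.0667, since 4 against 4 libraries allow no exact p under 0.0286.

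The other 4 pairs did not pass the test. The difference of log2 ratios was -0.44 for Atp6v1g3 to Atp6v1g1 (exact permutation p = 0.0635, adjusted p = 0.111) and -0.29 for Atp6v0a4 to Atp6v0a1 (p = 0.143, adjusted p = 0.200, exact permutation). It was 0.35 for Atp6v1c2 to Atp6v1c1 (p = 0.230, adjusted p = 0.238, exact permutation) and -0.20 for Atp6v0d2 to Atp6v0d1 (p = 0.238, adjusted p = 0.238, exact permutation). For the a and d subunits both forms changed the same way. Atp6v0a1 rose by a log2 fold change of 0.70 (limma adjusted p = 3.28e-05) beside Atp6v0a4, and Atp6v0d1 had a log2 fold change of -0.56 (limma adjusted p = 2.08e-04) beside Atp6v0d2. The widespread forms of C and G had log2 fold changes of -0.01 (Atp6v1c1, limma adjusted p = 0.918) and -0.09 (Atp6v1g1, limma adjusted p = 0.490), both of which turned above 0 with mitochondrial genes left out. With a transcript length trend removed, Atp6v1g1 was called higher (0.28, adjusted p = 0.0298).

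Across the whole pump, the 5 kidney-enriched subunits had 1 gene called higher and 3 lower, and their median log2 fold change was -0.53. The 16 widespread subunits had 4 called higher and 5 lower, with a median of -0.03 and a range from -2.41 (Atp6v1b2) to 0.70 (Atp6v0a1). Both shares of called genes, 4 of 5 and 9 of 16, are read beside the 59.7% of all tested genes, and whether the 2 lists differ was not tested.

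**Figure D2:**
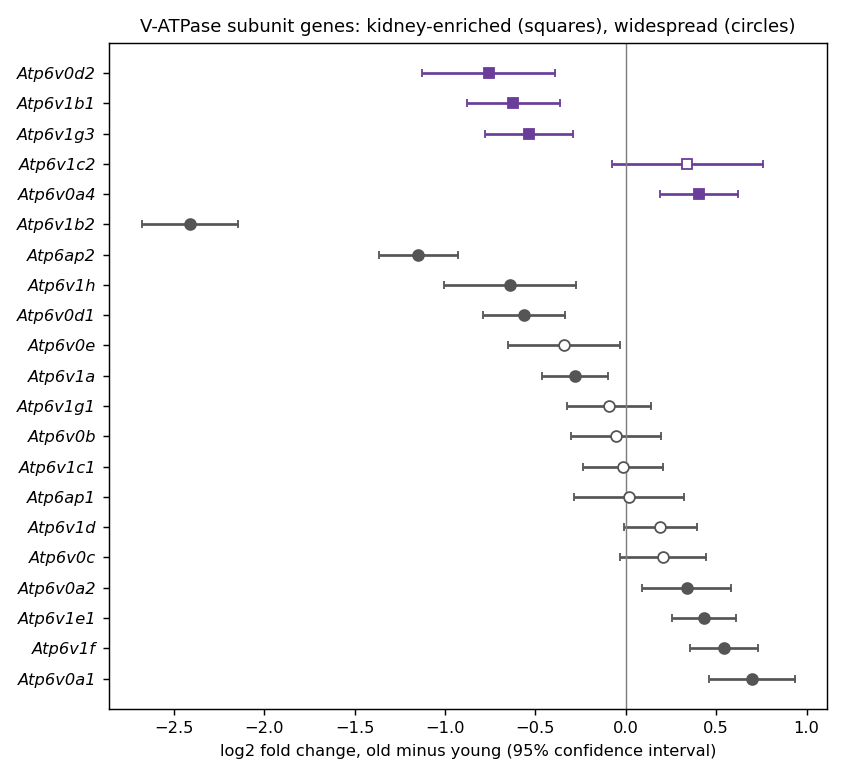
Log2 fold change, old against young, of 21 V-ATPase subunit genes, with squares for the 5 kidney-enriched subunits and circles for the 16 widespread ones, filled where the limma adjusted p was under 0.05. Lines are 95% confidence intervals. Atp6v1b2 lies farthest from 0, at -2.41, and Atp6v0a4 is the kidney-enriched subunit called higher, at 0.40.

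The 3 exchangers differed by the cell type they are known from. Slc26a4 and Slc4a9, of type B cells, were lower and Slc4a1, of type A cells, was higher in old kidneys. Slc4a8, a further bicarbonate exchanger known from type B cells, was not called (log2 fold change 0.57, limma adjusted p = 0.140). Slc26a4, pendrin (chromosome 12, 31519827 to 31559969, minus strand, 21 exons), had 122, 127, 123 and 100.5 in young and 74.3, 45.9, 54.8, 66.2 and 63.6 in old libraries. The old values did not reach the young range. Its mean fell from 118 ± 12.0 (SD, n = 4) to 61.0 ± 10.9 (SD, n = 5), a log2 fold change of -0.96 (SE 0.16, 95% interval -1.30 to -0.62, limma adjusted p = 5.48e-05).

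Slc4a9, the basolateral exchanger of type B cells, showed the largest change of the 10 members. On GRCm38 it lies on chromosome 18 (36528147 to 36556273, plus strand, 22 exons). It had 97.5, 149.6, 128 and 137 in young and 36.5, 42.7, 47.7, 54.1 and 49.9 in old libraries. The highest old value was well under the lowest young value. The mean fell from 128 ± 22.2 (SD, n = 4) to 46.2 ± 6.78 (SD, n = 5), a log2 fold change of -1.45 (SE 0.17, 95% interval -1.80 to -1.09, limma adjusted p = 7.84e-07), and 89.0% of the tested genes had a smaller change in either direction.

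Slc4a1, the exchanger of type A cells, is also band 3 of the red cell membrane, and reads at the shared transcript end do not separate the kidney form from the red cell form. The gene has 20 exons on chromosome 11 (102348824 to 102366203, minus strand). It had 69.6, 63.2, 93.1 and 102 in young and 105, 107, 137, 139.9 and 143 in old libraries. The groups did not overlap, although the highest young and the lowest old value lay next to each other. The log2 fold change was 0.63 (SE 0.17, 95% interval 0.28 to 0.98, limma adjusted p = 0.00303). Of 5 tested erythroid genes, 2 were called higher (Hba-a2 at 0.86 and Hbb-bt at 0.92), 1 lower (Hba-a1 at -0.43) and 2 were not called (Hbb-bs at 0.09 and Alas2 at -0.30). Their summed level was 13530 to 19362 in young and 12446 to 30372 in old libraries. The part of red cell RNA in the level of Slc4a1 was not tested.

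Within a library, Slc26a4 and Slc4a9 fell relative to Slc4a1. The ratio of Slc26a4 to Slc4a1 was 0.982 to 2.02 in young and 0.400 to 0.708 in old libraries (difference of log2 ratios -1.59, exact permutation p = 0.00794, adjusted p = 0.0185). The ratio of Slc4a9 to Slc4a1 was 1.34 to 2.37 in young and 0.348 to 0.398 in old libraries (difference -2.08, exact permutation p = 0.00794, adjusted p = 0.0185). The old libraries spread little for the second ratio, with an SD of 0.0245 around a mean of 0.366. Without any 1 old library both had an adjusted permutation p of 0.0667. Both ratios share Slc4a1, so they are not independent. Every old value of Slc26a4 and Slc4a9 lay below the young values, and every old value of Slc4a1 lay above them. The groups of both ratios therefore had to separate, and the permutation p had to be the smallest possible. These p-values add no support beyond the values of the single genes.

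**Figure D3:**
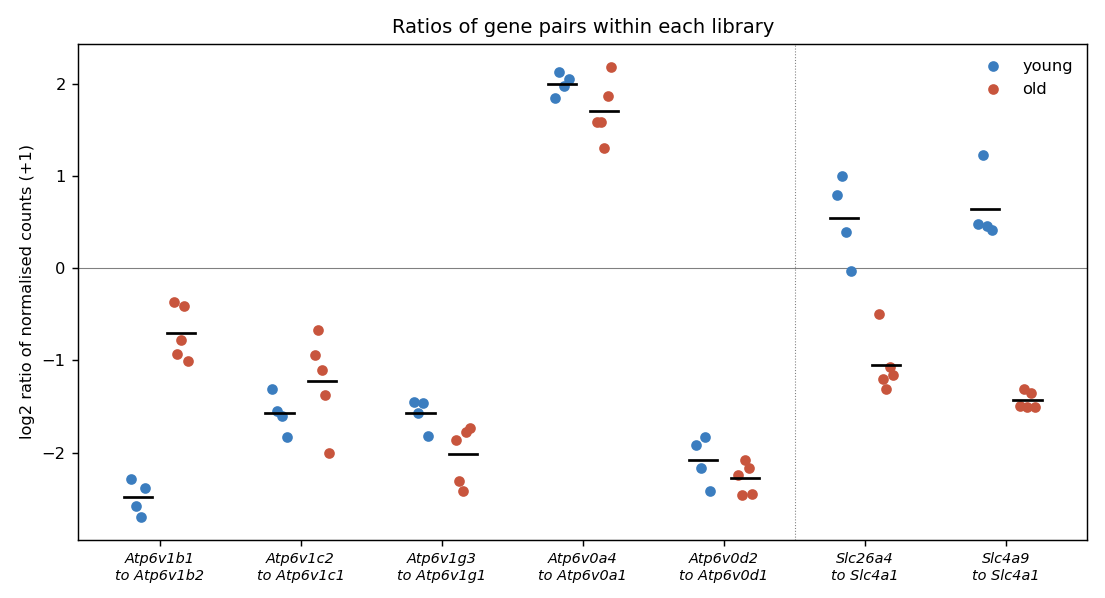
Log2 ratio of 7 gene pairs in each library, with young (n = 4) beside old (n = 5) and bars at the group means. The groups are apart for Atp6v1b1 to Atp6v1b2, which is higher in old, and for both exchanger ratios, which are lower in old, and they overlap for the other 4 pairs.

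Rhcg, which carries ammonia across the membrane of type A and principal cells (chromosome 7, 79593363 to 79617657, minus strand, 11 exons), did not pass the test. It had 158, 160.3, 155 and 150.3 in young and 182, 125, 142, 169 and 184 in old libraries. The young libraries lay close together (coefficient of variation 2.79%), and the old libraries lay on both sides of them (16.1%). The log2 fold change was 0.02 (SE 0.13, 95% interval -0.25 to 0.30, limma adjusted p = 0.892), and its sign turned under scaling to the table total (-0.03). A change of the size seen for Slc4a9 or Slc26a4 lies outside this interval.

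Foxi1 was lower in old kidneys and was the most variable of the members. The gene has 2 exons on chromosome 11 (34204338 to 34208089, minus strand). It had 47.5, 59.3, 65.7 and 103 in young and 41.3, 59.1, 19.3, 38.2 and 14.9 in old libraries. The groups overlapped, with 4 of the 5 old libraries below the lowest young one and old replicate 2 within the young range. The mean fell from 68.9 ± 24.1 (SD, n = 4) to 34.5 ± 17.9 (SD, n = 5), a log2 fold change of -1.08 (SE 0.32, 95% interval -1.76 to -0.40, limma adjusted p = 0.00766). It was counted with 14 to 114 reads per library, and the coefficient of variation was 34.9% in young and 51.8% in old libraries. Without young replicate 4, its highest library, the adjusted p was 0.0415.

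A list of 23 further genes of intercalated cells held 19 genes that were tested, of which 3 were called higher and 6 lower, and their median log2 fold change was -0.03. The share called, 9 of 19, is read beside the 59.7% of all genes. With mitochondrial genes left out the split was 6 higher and 5 lower. Car2, the cytosolic carbonic anhydrase that supplies protons and bicarbonate to pump and exchanger, rose from 949 ± 72.0 to 1377 ± 133 (SD, n = 4 and 5; log2 fold change 0.53, limma adjusted p = 1.04e-04). Car12, a carbonic anhydrase of the cell surface, fell from 606 ± 36.0 to 241 ± 37.2 (log2 fold change -1.34, limma adjusted p = 1.81e-08). The other genes called higher were Kit, the receptor of stem cell factor, at a log2 fold change of 1.38, and Atp4a, the catalytic subunit of the gastric proton-potassium pump, at 1.19.

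Among the other genes called lower, Oxgr1, a receptor for 2-oxoglutarate found in type B cells, had a log2 fold change of -1.29. Insrr, also known from type B cells, was not called (log2 fold change -0.04, limma adjusted p = 0.899), as Slc4a8 was not. Bsnd, the barttin subunit of chloride channels, had -1.04. Hmx2, a homeobox transcription factor, had -0.97 beside the -1.08 of Foxi1. Spink8, of a family of serine protease inhibitors, had -2.05, and the membrane protein Hepacam2 had -0.65, a call that was lost with mitochondrial genes left out and without young replicate 4. Aqp6, a water channel of type A cells, was not called (log2 fold change -0.07, limma adjusted p = 0.782).

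**Figure D4:**
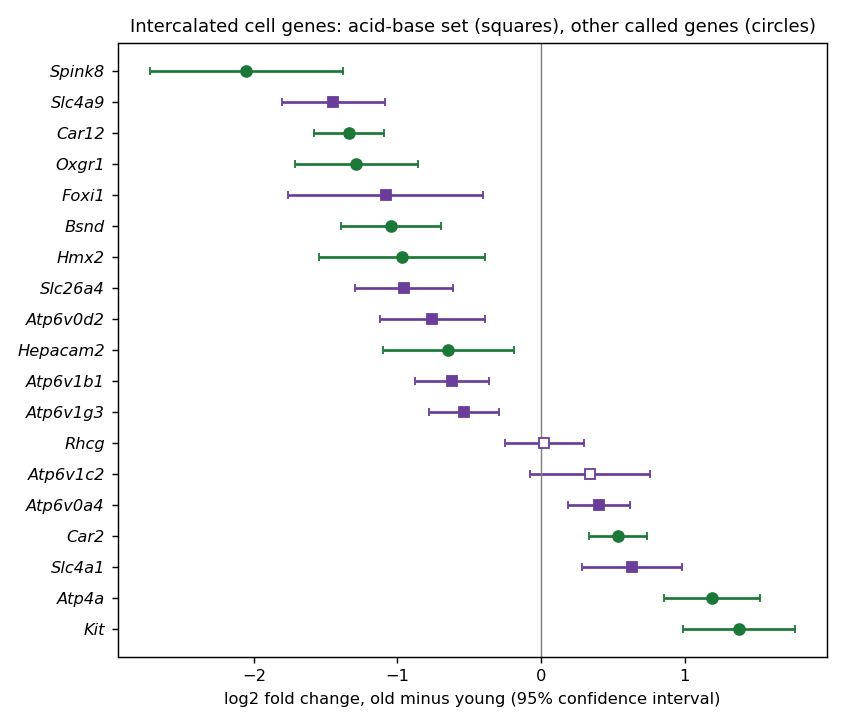
Log2 fold change, old against young, of the 10 members (squares) and the 9 of 19 other genes of intercalated cells that were called (circles), with 95% confidence intervals and filled symbols where the limma adjusted p was under 0.05. The values run to both sides of 0, from -2.05 (Spink8) to 1.38 (Kit), and genes of both kinds were called in each direction.

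Acid-base genes of other nephron segments changed in both directions as well, with 3 of 10 tested called higher and 4 lower, a share near the 59.7% of all tested genes. The bicarbonate cotransporter Slc4a4 of the proximal tubule rose from 3172 ± 141 to 7870.2 ± 512 (SD, n = 4 and 5; log2 fold change 1.31), and the sodium-proton exchanger Slc9a3 rose from 51.0 ± 12.8 to 172 ± 33.1 (1.75). Pck1, which makes glucose from the products of ammonia formation, fell from 4067 ± 463 to 1338 ± 249 (log2 fold change -1.62), and the carbonic anhydrase Car4 fell from 1746 ± 129 to 663 ± 135 (-1.42).

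The summed level of the 10 members overlapped between the ages, at 2225 to 2365 in young and 1968 to 2419 in old libraries. Atp6v0a4, called higher, was its largest part, at a mean of 857 of 2297 in young and 1139 of 2205 in old libraries. The sum is weighted to that gene and does not show how the other members moved. Of 8 markers of the neighbouring principal cells, 1 was called higher and 4 lower, and their sum was 2318 to 2997 in young and 1173 to 3674 in old libraries. Old replicate 3 stood apart there, and without it the old sums were 1173 to 1731, below every young library. Aqp2, the water channel of these cells, was at 2267 in old replicate 3 against 334 to 694 in the other old libraries, and the 8 member calls held without that library. The marker sum of the thick ascending limb was 7270 to 7960 in young and 8391 to 11748 in old libraries, with 1 of 4 markers called, higher. That of the distal convoluted tubule was 3231 to 4071 and 4774 to 5885, with 2 of 4 markers called higher and 2 lower. The endothelial sum was 764 to 843 and 1035 to 1219, with 3 of 5 markers called, all higher. Sums of 5 podocyte markers overlapped, at 685 to 753 and 736 to 870, with 3 called higher and 1 lower. The part of these shifts in the values of the members was not tested.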

How the data were processed

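Per the labels, total kidney RNA was made into libraries of transcript ends from oligo(dT) primers. Its integrity number averaged 7.5 (range 7.4 to 7.6, given once for all libraries). The authors aligned reads to GRCm39 with TopHat2 2.0.10, counted them by strand with HTSeq 0.6.1 on GENCODE and normalised them. The deposited values are a signal, namely counts divided by a single size factor per library. Every value was a whole multiple of the smallest positive value of its library (tolerance 0.01), which recovered the reads. The table lists no gene with a mean under 4.49 normalised counts.

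Groups follow the age in the labels, and replicate numbers follow listing order. Nothing in the labels names the animal behind a library, so p-values measure the spread between these libraries. The test was limma 3.58.1 (variance trend, R 4.3.3) on log2(normalised count + 1), for genes that reached 10 normalised counts in 4 or more libraries, with Benjamini-Hochberg adjustment over all 12667 genes. Fold changes on this scale are understated for low genes. Ratios were tested by exact permutation. The gene-wise tests were also run on simulated counts, in which far fewer genes changed than were called here. That setting differs from these data and cannot vouch for the calls. The members and the gene lists were chosen with earlier results of these data known. Named outside the members are the 5 paired subunits, every called gene of the other intercalated list, and the 2 largest rises and 2 largest falls of the acid-base list, with Umod, Aqp2, Lrp2 and the globin genes as markers. Aqp6, Slc4a8, Insrr and Alas2 were named after their values were seen. A result on 1 gene is not reported here. Alternatives were other pseudocounts, filters and scalings, limma with robust eBayes, DESeq2 1.42.0 and edgeR 4.0.16 on the recovered reads, and leaving out each library, for which the tested genes were kept rather than filtered anew, a choice made after the results were seen. Positions and shared sequence came from GENCODE on GRCm38, not the authors' build, and promoters from RefSeq. No depth outside the listed genes was used.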

Additional observations from a re-analysis of the deposited data

Results flagged for a closer look

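Each group of 4 or 5 libraries was searched for a lowest or highest value far from the others by Dixon's test, which chance passes in about 1 of 20 groups. Of 94 groups, 3 passed, against 4.7 by chance. Young replicate 2 had a log2 ratio of Slc4a9 to Slc4a1 of 1.231, where the other 3 young libraries lay between 0.4147 and 0.4796. Hmx2 was at 5.7 (log2 of normalised count + 1) in young replicate 3, and the others lay between 5.913 and 5.946. The summed level of the other intercalated cell genes was 11.72 (log2) for old replicate 5, where the other old libraries lay between 11.94 and 12.03.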

How the results depend on the processing

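Of the 10 members, 8 kept direction and side of the threshold in all 20 alternatives in which they were tested. The exceptions were Atp6v1c2, given with its values above, and Rhcg, which turned to -0.0297 with scaling to the table total, to -0.0259 without old replicate 1 and to -0.0299 without old replicate 5 (range over single libraries left out -0.0299 to 0.109). Testing only genes whose mean reached 100 normalised counts tested fewer genes and gave 4101 genes called (2040 higher, 2061 lower), 4 members called (2 of them lower) and 4 other intercalated genes called (2 of them lower). With mitochondrial genes left out, 6 other intercalated genes were called higher, Hepacam2 lost its call (adjusted p = 0.0530), Atp6v1c1 turned to 0.128 and Atp6v1g1 to 0.0489. With the transcript length trend removed, Atp6v1g1 turned to 0.280 (adjusted p = 0.0298). Atp6v1c1 also turned without young replicate 2 (0.0109) and without old replicate 1, 2 or 4 (0.0102, 0.000746 and 0.00415; range over single libraries left out -0.0498 to 0.0109). Without young replicate 4 the call of Hepacam2 was lost (adjusted p = 0.0528). The cause of these turns was not tested. Leaving out 1 library gave 6900 to 7626 genes, 8 to 9 members and 8 to 10 other intercalated genes called. It gave log2 ratio differences of 1.71 to 1.87 (Atp6v1b1 to Atp6v1b2), -1.78 to -1.44 (Slc26a4 to Slc4a1) and -2.16 to -1.89 (Slc4a9 to Slc4a1). Without any 1 old library, 4 libraries face 4 and the 70 possible splits allow no exact p under 0.0286, so these 3 ratios had an adjusted permutation p of 0.0667 there. Without any 1 young library the adjusted permutation p was 0.0417. The labels give no pairing between young and old libraries, so no paired analysis was made. Depth limits low genes, with as few as 14 reads in a library for Foxi1 and 7 for Spink8.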
